A study of Rattus norvegicus with 6 samples.

Results

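The bile acid genes described here are 9 genes of synthesis, conjugation, uptake, export and feedback control: Cyp7a1, Cyp8b1, Cyp7b1, Cyp27a1, Baat, Slc10a1, Abcb11, Nr1h4 and Nr0b2. They were taken by symbol from the platform annotation, and each has 1 probe set (a set of array probes for one transcript) with that symbol alone, so 9 of 31042 probe sets and 9 of 14217 named genes. All 9 passed the filter on low values, as did 18625 probe sets in all. The liver RNA came from male Sprague Dawley rats of 210 to 230 g, kept in a 12:12 h light and dark cycle with free access to chow. Tienilic acid (TA), a uricosuric diuretic, was given by gavage at 100 mg/kg in an equimolar amount of sodium bicarbonate. Vehicle rats were given sodium bicarbonate alone. The 6 h groups had 1 dose, with 2 TA rats hybridized singly and 1 array labelled as the control animals together, of which there were 2 (called the vehicle pool here). The 24 h groups had doses at 0 and 16 h and the same layout. The labels state no clock time of dosing.

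Bile acids are made from cholesterol in hepatocytes. Cyp7a1, the cholesterol hydroxylase, starts the classic pathway and limits its rate, Cyp8b1 adds the hydroxyl group that turns the product into cholic acid, and Cyp27a1 and Cyp7b1 run the alternative pathway, which starts at the sterol side chain. Baat joins bile acids to taurine or glycine, Abcb11 (the bile salt export pump) secretes them into bile, and Slc10a1 (NTCP) takes them back from portal blood. Nr1h4 (FXR) is the nuclear receptor that senses them, and it induces Nr0b2 (SHP), a corepressor that lowers Cyp7a1 and Cyp8b1. Synthesis follows a daily rhythm in rat liver, and Cyp7a1 transcripts are among its best known outputs.

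Hepatocyte transcripts were abundant on every array: Alb, albumin, lay between 16.54 and 16.67 (log2 expression). Of the 8 cholangiocyte markers, 3 were above the filter. These were Epcam, at 8.91 to 10.44, Krt19, at 5.55 to 6.98, and Slc10a2, at 4.31 to 6.65. Krt7, Spp1, Cftr and Aqp1 were near the floor of the table, and Sox9 had no probe set with that symbol alone. Precision is limited by the number of arrays. Array medians lay between 3.27 and 3.31. Each vehicle group is 1 array with no replicate. Standard errors come from how far the TA animals of a time lay apart, pooled over both times. Limma moderates this spread with that of all tested probe sets. A vehicle pool is assumed to vary like a treated array. Whether the animals of a pool differed is not known, and an exact permutation of 2 arrays against 2 cannot go below p = 0.333.

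Cyp7a1 was the gene of the set that differed most between the arrays (probe set 1368458_at). Its log2 expression was 8.77 in the vehicle pool of 6 h and 12.17 and 10.78 in the TA animals of 6 h. At 24 h it was 11.98 in the vehicle pool and 10.88 and 10.25 in the TA animals. The vehicle pool of 6 h was thus the lowest of the 6 arrays, the vehicle pool of 24 h the second highest, and all 4 treated animals lay between 10.25 and 12.17.

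At 6 h, TA was above vehicle by 2.70 ± 0.70 (log2 difference, limma SE, n = 2 treated animals against 1 pool), a 6.51-fold difference in the means. By size this ranked 11 of 18625 probe sets. It did not pass limma's test, with an unadjusted p of 0.022 and an adjusted p of 0.81. At 24 h the treated animals were on the other side of their pool, by -1.10 and -1.73, a mean of -1.41 ± 0.70 (limma, unadjusted p = 0.12, adjusted p = 1). The difference of the effect between the times, 24 h minus 6 h, was -4.12 ± 0.99 (limma, unadjusted p = 0.018, adjusted p = 1), and ranked 12 of 18625 by size. Most of that difference lay in the vehicle pools, which were 3.21 apart (24 h minus 6 h, 9.23-fold, 1 array each, so no test), while the TA means were apart by -0.91 ± 0.57 (limma, adjusted p = 0.58).

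**Figure D1:**
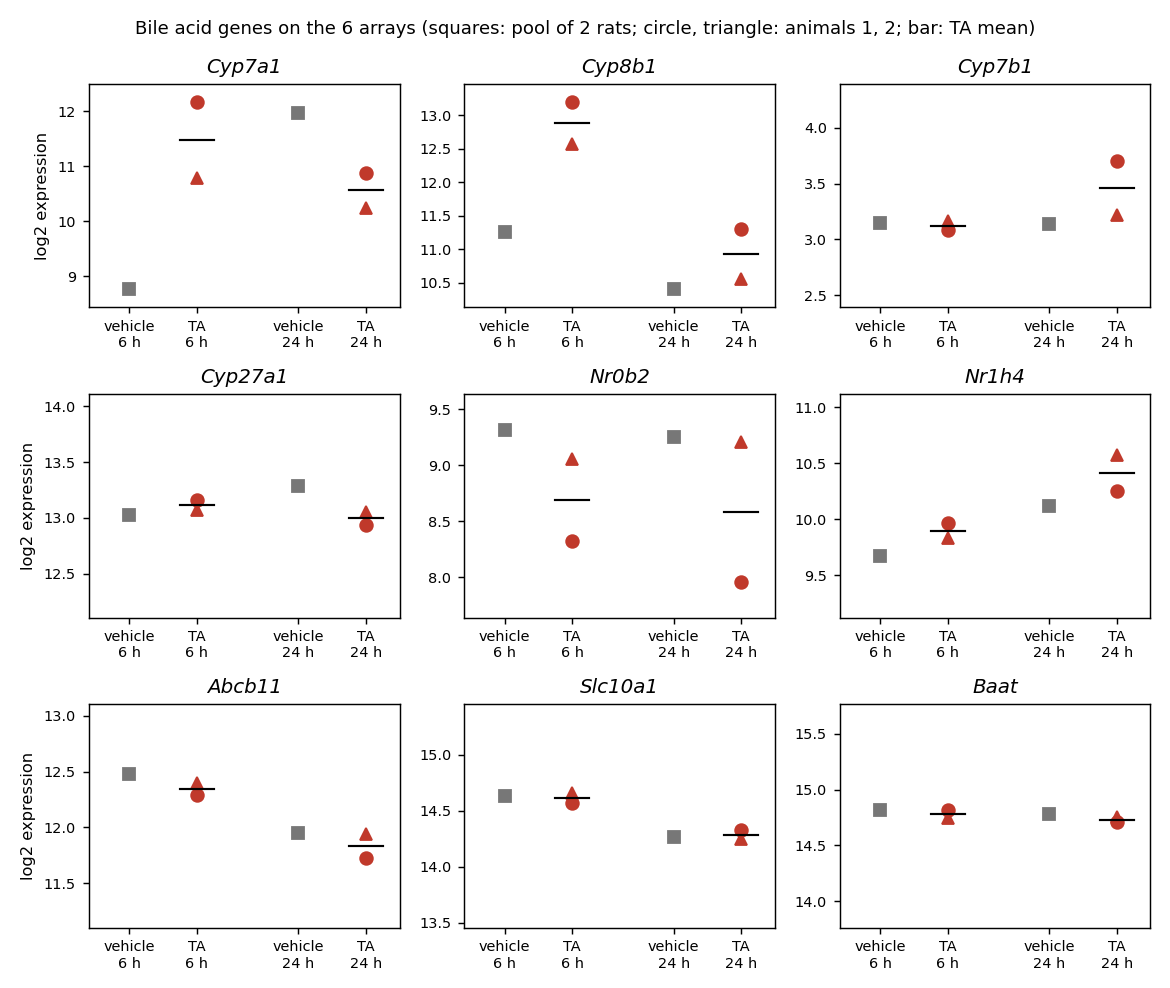
Log2 expression of the 9 bile acid genes (vertical axes, each spanning at least 2 log2 units) on the 6 arrays, grouped along the horizontal axis as vehicle and TA at 6 h and at 24 h. Grey squares are vehicle pools of 2 rats, red circles and triangles are TA animals 1 and 2 of that time, and bars are TA means; Cyp7a1 ran from 8.77 to 12.17, whereas Baat lay between 14.71 and 14.82.

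Cyp8b1, the sterol 12-alpha-hydroxylase, was highest in the TA animals of 6 h (probe set 1368435_at). At 6 h the pool stood at 11.26 and the TA animals at 13.19 and 12.57, and at 24 h the pool stood at 10.42 and the animals at 11.31 and 10.56. Every treated animal was above the vehicle pool of its own time, and both animals of 6 h were above the 4 other arrays. The log2 difference of TA from vehicle was 1.62 ± 0.46 at 6 h (3.08-fold, rank 62 of 18625; limma, unadjusted p = 0.028, adjusted p = 0.83) and 0.52 ± 0.46 at 24 h (limma, unadjusted p = 0.33, adjusted p = 1). Within TA, the 24 h mean differed from the 6 h mean by -1.95 ± 0.37 (3.85-fold lower), with an adjusted p of 0.21 in limma. The vehicle pools differed in the same direction, by -0.84, on 1 array each.

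The 250 bases before the annotated start sites were searched for letters bound by known regulators. Among these were CAAGG, the core letters bound by NR5A2 (LRH-1), the nuclear receptor that SHP opposes at bile acid genes, and CACGTG, the E-box letters bound by CLOCK and BMAL1, both on either strand. RefSeq promoters of GRCr8 were at hand for 5 of the 9 genes; those of Cyp7a1, Cyp7b1, Abcb11 and Nr1h4 were not used here. The promoters of Cyp8b1 and Nr0b2 are shown because these are a synthesis enzyme whose value was above the pool in all 4 treated animals and the repressor that acts on it, with capitals at CAAGG and CACGTG. The Cyp8b1 window is chr8:130457593-130457842 (minus strand) and the Nr0b2 window chr5:151062910-151063159 (plus strand).
Cyp8b1: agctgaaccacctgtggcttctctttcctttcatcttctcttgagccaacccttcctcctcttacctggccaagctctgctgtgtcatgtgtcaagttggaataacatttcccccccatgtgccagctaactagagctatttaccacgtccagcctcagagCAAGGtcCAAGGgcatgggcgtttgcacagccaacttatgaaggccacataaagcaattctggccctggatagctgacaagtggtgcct
Nr0b2: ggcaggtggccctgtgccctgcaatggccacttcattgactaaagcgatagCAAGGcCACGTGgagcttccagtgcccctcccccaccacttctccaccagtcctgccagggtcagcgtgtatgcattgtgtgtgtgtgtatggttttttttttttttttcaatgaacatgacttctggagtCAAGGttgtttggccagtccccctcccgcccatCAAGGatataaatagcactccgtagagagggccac
Cyp8b1 held CAAGG 2 times, 89 and 82 bases before the start, and CACGTG 0 times. Nr0b2 held CAAGG 3 times, 199, 68 and 35 bases before the start, 2 of them as TCAAGG, and CACGTG 1 time, 193 bases before it, 1 base after the end of the first CAAGG. The TATA box letters TATAAA were also searched and were found 29 bases before the start of Nr0b2 (12.9% of all windows). The orphan receptor letters AAGGTCA were found in Cyp27a1 (3.99%). The letters GTTAAT, part of the HNF1 motif, were found in Slc10a1 (6.45%). In Cyp27a1 and Slc10a1 there was 1 CAAGG each, and in Baat 0. CAAGG was in 46.3% of the 33469 promoter windows of the same length, TCAAGG in 12.6% and CACGTG in 5.59%. A match of these letters is a description of the window and not a binding site.

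The array with the highest Cyp7a1 and Cyp8b1, TA animal 1 of 6 h, stood apart in some other measures. Its 3′ minus 5′ difference of the GAPDH control probe sets, a measure of RNA integrity, was 2.26 (log2), against 1.82 to 2.04 on the 5 other arrays. The same difference for actin was 4.31 there, inside the 4.17 to 4.36 of the others. The mean over 6 macrophage markers was 9.76 there and 9.02 to 9.42 elsewhere, and that over 6 stellate cell markers was 8.62 there and 7.24 to 8.07 elsewhere. Des and Rgs5 of the stellate list were below the filter. The mean over 7 hepatocyte markers on that array was 14.76, inside the span of 14.62 to 14.88 elsewhere. The part of these measures in the Cyp7a1 and Cyp8b1 values was not tested. Without this animal the 6 h differences were 2.01 for Cyp7a1 and 1.31 for Cyp8b1, and without the other animal 3.40 and 1.93. By the hybridization times in the instrument settings, the vehicle pool of 6 h and TA animal 1 of 6 h were hybridized together and the 4 other arrays later, so the values of animal 1 are also those within that run.

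Cyp27a1 and Cyp7b1, of the alternative pathway, did not share this pattern in size. Cyp27a1 was at 13.03, 13.16 and 13.07 at 6 h (vehicle, then TA animals 1 and 2) and at 13.28, 12.94 and 13.06 at 24 h. The differences of TA from vehicle were 0.08 ± 0.11 at 6 h and -0.28 ± 0.11 at 24 h, with both animals above the pool at 6 h and both below it at 24 h. Cyp7b1 lay between 3.08 and 3.22 on 5 arrays, under the array medians, where differences are compressed, and at 3.71 in TA animal 1 of 24 h, with TA differences of -0.03 ± 0.24 at 6 h and 0.32 ± 0.24 at 24 h. Baat, the conjugating enzyme, was the steadiest of the set, from 14.71 to 14.82, with differences of -0.04 ± 0.10 at 6 h and -0.05 ± 0.10 at 24 h.

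Nr0b2, the corepressor, was low in 1 animal of each time rather than in both (probe set 1368376_at). At 6 h the pool stood at 9.32 and the TA animals at 8.32 and 9.06, and at 24 h the pool stood at 9.26 and the animals at 7.96 and 9.21. All 4 treated animals were below the pool of their time, 2 of them by 1.00 and 1.30 and the other two by 0.26 and 0.05. The mean differences, -0.63 ± 0.67 at 6 h and -0.67 ± 0.67 at 24 h, were about the size of their standard errors (limma, unadjusted p = 0.40 and 0.38). At 6 h the animal with the lower Nr0b2 had the higher Cyp7a1 and Cyp8b1, and so did the animal with the lower Nr0b2 at 24 h. These are 2 pairs of animals, which allow no test. Against the pools the order was mixed. At 24 h both animals were below their pool in Nr0b2 and also in Cyp7a1. At 6 h both were below it in Nr0b2 and above it in Cyp7a1, and Cyp8b1 was above the pool at both times. The pools themselves had Nr0b2 at 9.32 and 9.26, with Cyp7a1 at 8.77 and 11.98. In the 24 h pair, the leading probe set of the pericentral marker Glul, glutamine synthetase, was at 11.06 and 12.36, and the part of such markers was not tested.

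Nr1h4, the bile acid receptor, was above vehicle in all 4 treated animals by small amounts. It was at 9.67, 9.97 and 9.83 at 6 h and at 10.12, 10.25 and 10.57 at 24 h (vehicle, then TA animals 1 and 2). The TA differences were 0.23 ± 0.18 at 6 h and 0.30 ± 0.18 at 24 h, neither past limma's test (unadjusted p = 0.29 and 0.19).

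**Figure D2:**
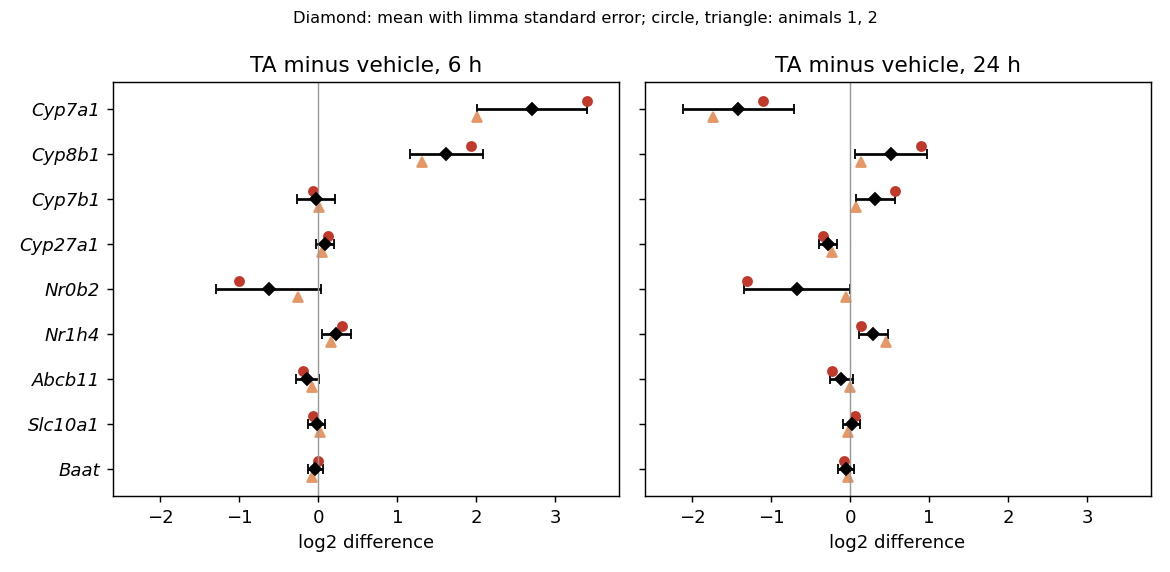
Log2 difference of TA from the vehicle pool (horizontal axis) for the 9 genes at 6 h (left) and 24 h (right). Diamonds are the mean of 2 animals with the limma standard error, circles and triangles are animals 1 and 2; Cyp7a1 is at 2.70 at 6 h and at -1.41 at 24 h, Cyp8b1 is above 0 in all 4 animals, and Baat and Slc10a1 lie near 0.

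Over the 9 genes, limma called 0 at 6 h and 0 at 24 h at an adjusted p under 0.05. The background was 0 of 18625 probe sets (0%) at 6 h and 1 (0.00537%) at 24 h, so that calls could not set these genes apart. At an unadjusted p under 0.05 there were 2 of the 9 at 6 h, Cyp7a1 and Cyp8b1, against 5.84% of all probe sets, and 0 at 24 h against 5.28%. Both treated animals of 6 h were at least 2-fold above their pool for these same 2 genes, as they were for 0.231% of all probe sets. At 24 h, 1 gene, Cyp7a1, was at least 2-fold below in both animals, against 0.344%. By direction alone the counts were 4 above and 2 below in both animals at 6 h, with 21% and 36.3% over all probe sets, and 3 above and 5 below at 24 h, with 24.6% and 36.8%. The median difference over the 9 genes was -0.02 at 6 h and -0.05 at 24 h, beside -0.02 and -0.01 over all probe sets. For the difference of the effect between the times, 0 of the 9 and 1 of all probe sets (0.00537%) were called, and Cyp7a1 was the 1 member with an unadjusted p under 0.05 (4.80% of all probe sets).

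For 3 of the 9 genes, Abcb11, Slc10a1 and Nr1h4, the arrays of 6 h and of 24 h did not overlap, as for 25% of all probe sets. None of the 3 passed the test. Abcb11, the export pump, was at 12.48, 12.29 and 12.40 at 6 h (vehicle, then TA animals 1 and 2) and at 11.95, 11.72 and 11.94 at 24 h. All 3 arrays of 24 h were below all 3 of 6 h. The difference of 24 h from 6 h was -0.53 between the vehicle pools and -0.51 ± 0.12 within TA (limma, unadjusted p = 0.016, adjusted p = 0.23). The TA differences from vehicle were -0.14 ± 0.15 at 6 h and -0.11 ± 0.15 at 24 h.

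Slc10a1, the uptake carrier, was at 14.64, 14.57 and 14.66 at 6 h and at 14.27, 14.33 and 14.25 at 24 h. The arrays of the times again did not overlap, with differences of -0.37 in vehicle and -0.33 ± 0.09 in TA (limma, adjusted p = 0.26), while TA and vehicle differed by -0.02 ± 0.11 at 6 h and 0.02 ± 0.11 at 24 h. Nr1h4 was higher at 24 h on all 3 arrays, by 0.45 in vehicle and 0.52 ± 0.15 in TA (limma, adjusted p = 0.28). Thus 1 of the 9 genes was above and 2 below on all arrays of 24 h, against 10.9% and 14.1% of all probe sets. In either direction this was 3 of 9 against 25% of all probe sets, so that the count does not set these genes apart.

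With time as 1 term over all 6 arrays and TA as the other, a fit chosen after seeing the data, the 24 h minus 6 h differences were -0.52 ± 0.08 for Abcb11 (limma, adjusted p = 0.089), -0.34 ± 0.06 for Slc10a1 (adjusted p = 0.095), 0.49 ± 0.11 for Nr1h4 (adjusted p = 0.12) and -1.58 ± 0.37 for Cyp8b1 (adjusted p = 0.13). None of the 9 was called, nor within TA alone, where 4 had an unadjusted p under 0.05 against 14.8% of all probe sets and 0 probe sets (0%) were called. In the fit over all 6 arrays 3 of 18625 probe sets (0.0161%) were called, 2 higher (0.0107%) and 1 lower (0.00537%) at 24 h. Time and the number of doses cannot be told apart in this design, and the vehicle difference also crosses the hybridization runs, since the pool of 6 h was in the first and all arrays of 24 h in the second. Within the second run, where TA animal 2 is the 1 array of 6 h, the TA differences of 24 h from 6 h were -0.57 for Abcb11, -0.37 for Slc10a1, 0.58 for Nr1h4, -1.63 for Cyp8b1 and -0.22 for Cyp7a1.

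**Figure D3:**
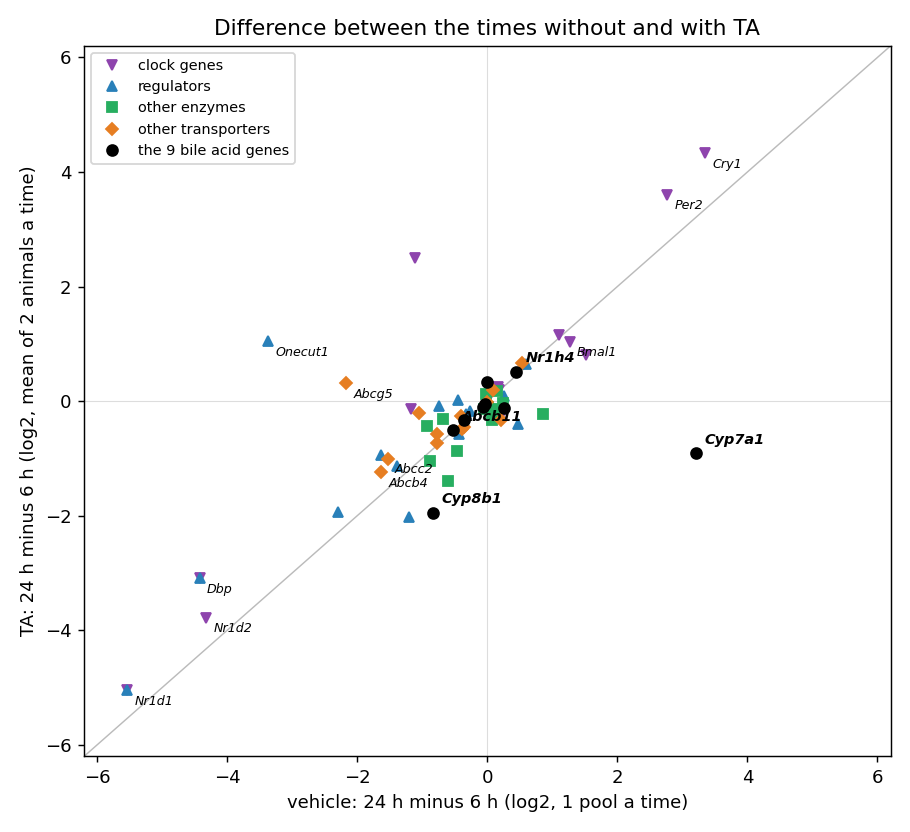
Difference of 24 h from 6 h in vehicle (horizontal axis, log2, 1 pool a time) against that in TA (vertical axis, log2, mean of 2 animals a time) for the 9 bile acid genes (black), other enzymes, other transporters, regulators and clock genes. The grey diagonal marks equal differences: Abcb11 and Nr1h4 lie near it, as does Abcb4, and Cyp7a1, at 3.21 and -0.91, lies far from it.

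The other genes of the pathway were looked up in fixed lists, each by its probe set with the highest mean. Of 16 other enzymes of bile acid synthesis, 13 were above the filter, and limma called 0 at either time. At 6 h, 9 of the 13 were above the pool in both treated animals and 0 below in both (21% and 36.3% of all probe sets), with a median difference of 0.14 (-0.02 over all probe sets), and at 24 h 4 were above and 5 below (24.6% and 36.8%), with a median of -0.04 (-0.01 over all probe sets). None of them was at least 2-fold apart from its pool in both animals or between the pools. All 3 arrays of 24 h were below those of 6 h for 4 of the 13 (14.1% of all probe sets): Amacr, Acox2, Cyp39a1 and Abcd3.

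Of 17 other transporters of bile acids and bile lipids, 13 were above the filter and 0 were called. Between the vehicle pools, 4 of the 13 were at least 2-fold lower at 24 h (1.72% of all probe sets): Abcb4, Abcc2, Abcg5 and Abcg8. Abcb4, which moves phospholipid into bile, was at 10.89, 10.59 and 10.53 at 6 h (vehicle, then TA animals 1 and 2) and at 9.26, 9.31 and 9.32 at 24 h, a difference of -1.64 between the pools and -1.24 ± 0.08 within TA (limma, adjusted p = 0.14). Abcc2, an exporter of conjugates, was at 12.67, 12.79 and 12.31 at 6 h and at 11.14, 12.23 and 10.84 at 24 h. For 6 of the 13 transporters, all 3 arrays of 24 h were below those of 6 h, and for 0 above, against 14.1% and 10.9% of all probe sets. Abcg5 and Abcg8, which together form the sterol exporter, were at least 2-fold above the vehicle pool of 24 h in both animals of that time, 2 of 13 transporters against 0.236% of all probe sets. Abcg5 was at 5.09 in that pool and at 7.20 and 8.12 in the animals, a difference of 2.57 ± 1.09, and Abcg8 at 2.62, 3.66 and 4.66. That Abcg8 pool value is in the floor of the table, under the filter value of 2.82, so that no size is given for its difference. Both 2-fold counts above take in Abcg8 on that floor value. At 6 h the treated animals were on either side of the pool for both: Abcg5 was at 7.26 in the pool and 8.45 and 6.24 in the animals, and Abcg8 at 3.67, 5.64 and 3.09.

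Of 21 regulators of bile acid synthesis, 15 were above the filter and 0 were called for TA. At 6 h, 10 of the 15 were below the pool in both animals, against 36.3% of all probe sets, and the median difference was -0.23, against -0.02. At 24 h both medians rounded to -0.01. Nr5a2 (LRH-1), an activator of Cyp7a1 and Cyp8b1, was at 9.90, 9.62 and 9.66 at 6 h and at 9.57, 9.33 and 9.50 at 24 h. Onecut1 (HNF-6), a liver transcription factor, was at 11.78 in the pool and 8.60 and 9.81 in the animals at 6 h, and at 8.40 in the pool and 10.31 and 10.19 in the animals at 24 h. It thus differed from vehicle by -2.57 ± 0.57 at 6 h and by 1.85 ± 0.57 at 24 h. Across the 6 arrays its vehicle pools were at opposite ends, as those of Cyp7a1 nearly were, with the order turned round. Between the vehicle pools 7 of the 15 regulators were at least 2-fold lower at 24 h (1.72% of all probe sets) and 0 at least 2-fold higher (1.46%). Of the 9 bile acid genes, 1, Cyp7a1, was at least 2-fold apart between the pools, against 3.17% in either direction. Besides Onecut1, these were Nr1i3 (CAR), at 6.72 and 4.42, the coactivator Ppargc1a, at 6.60 and 5.40, Foxa2, at 10.77 and 9.13, Mafg, at 7.09 and 5.70, Dbp and Nr1d1. Ppargc1a was at 4.48 and 4.35 in the TA animals of 24 h, below both pools, and its second probe set above the filter was at 2.92 in the pool of 24 h and 2.91 and 2.87 there, near the floor.

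Dbp, an activator of Cyp7a1 transcription, and Nr1d1 (REV-ERB alpha), a repressor of the clock, are also clock genes, and the values of the clock list were looked up for both times. Nr1d1 lay between 6.73 and 7.51 at 6 h and at 1.96 to 1.97 at 24 h, the floor of the table, so that no fold is given. Dbp was at 8.51, 7.80 and 6.85 at 6 h and at 4.09, 4.91 and 3.56 at 24 h. Cry1 was at 5.40, 4.19 and 4.92 at 6 h and at 8.75, 8.91 and 8.85 at 24 h, and Per2 at 5.72, 5.0 and 5.27 and then 8.49, 8.60 and 8.87. Both are repressors of the clock loop. Nr1d2 was at 11.46, 10.97 and 10.81 at 6 h and at 7.14, 7.61 and 6.61 at 24 h. Bmal1 was at 6.91, 7.50 and 6.97, and then 8.18, 8.33 and 8.22. Hlf was at 7.83, 7.96 and 8.06, and then 8.93, 9.02 and 9.30. Nfil3 was at 7.78, 7.80 and 8.43, and then 9.31, 9.32 and 8.52. Of 15 clock genes above the filter, 6 were higher and 3 lower on all arrays of 24 h, against 10.9% and 14.1% of all probe sets. In the fit over all 6 arrays Nr1d1 was 1 of the 3 probe sets called and the 1 clock gene called (limma, adjusted p = 0.042), and Cry1, Per2 and Dbp did not pass (adjusted p = 0.054, 0.054 and 0.086). Within TA alone its adjusted p was 0.14.

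For Nr1d1, Dbp, Cry1 and Per2 all 3 arrays of 24 h thus stood apart from all 3 of 6 h, with TA and vehicle on the same side. Nr1d2, Bmal1, Hlf and Nfil3 had this layout too. Not all clock genes named by rule had it, as the arrays of the times overlapped for Tef and Bhlhe40. On its leading probe set Tef differed between the times by -1.18 in vehicle and -0.14 in TA. Bhlhe40 had TA means of 6.14 at 6 h and 8.63 at 24 h against pools of 8.43 and 7.32. Cyp7a1 did not have the layout either, with TA means of 11.5 at 6 h and 10.57 at 24 h against pools of 8.77 and 11.98. For both Bhlhe40 and Cyp7a1, TA and vehicle thus differed between the times in opposite directions. The part of the daily rhythm in the vehicle pools' Cyp7a1 values was not tested. The mean over 8 periportal hepatocyte markers was 11.66 in the vehicle pool of 24 h and 12.11 to 12.50 on the other arrays, and its part was not tested either. The widest gap was that of Sds, at 6.73 in that pool and 7.96 to 10.94 on the other arrays. Ass1, Hal and Asl were also lowest in that pool, whereas Gls2, Pck1, Cdh1 and Hsd17b13 were not. In whole liver, fewer cells of a type and less RNA per cell cannot be told apart.

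Among 10448 other named genes above the filter, the 5 nearest to Cyp7a1 over the 6 arrays, by the root mean square difference of values centred on each gene's mean, were Poteml2, Adam23, Dmbt1, Psmg3 and Kat5. Their distances were 0.71 to 0.75 log2 units, none of them close beside a range of 3.40 for Cyp7a1 itself. The 5 nearest to Cyp8b1 were closer, from 0.34 to 0.48: Akr7a3, Tatdn3, Pla2g12a, Igfbp2 and Rab30. Akr7a3, an aldehyde reductase and Nrf2 target, was at 11.17, 12.28 and 12.22 at 6 h and at 10.30, 10.99 and 10.77 at 24 h, above the pool of its time in all 4 animals, as Cyp8b1 was. Tatdn3 and Pla2g12a had this order too, with 4.13, 5.39 and 4.39 and 6.56, 7.76 and 7.14 at 6 h. The Tatdn3 value in the pool of 24 h, 2.47, is in the floor. Igfbp2 did not have this order at 24 h, at 5.68 in the pool and 5.20 and 4.99 in the animals, nor did Rab30, at 6.88 in the pool and 7.17 and 6.74 in the animals. The genes were chosen as nearest on these same arrays, so a shared order follows in part from that choice.

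**Figure D4:**
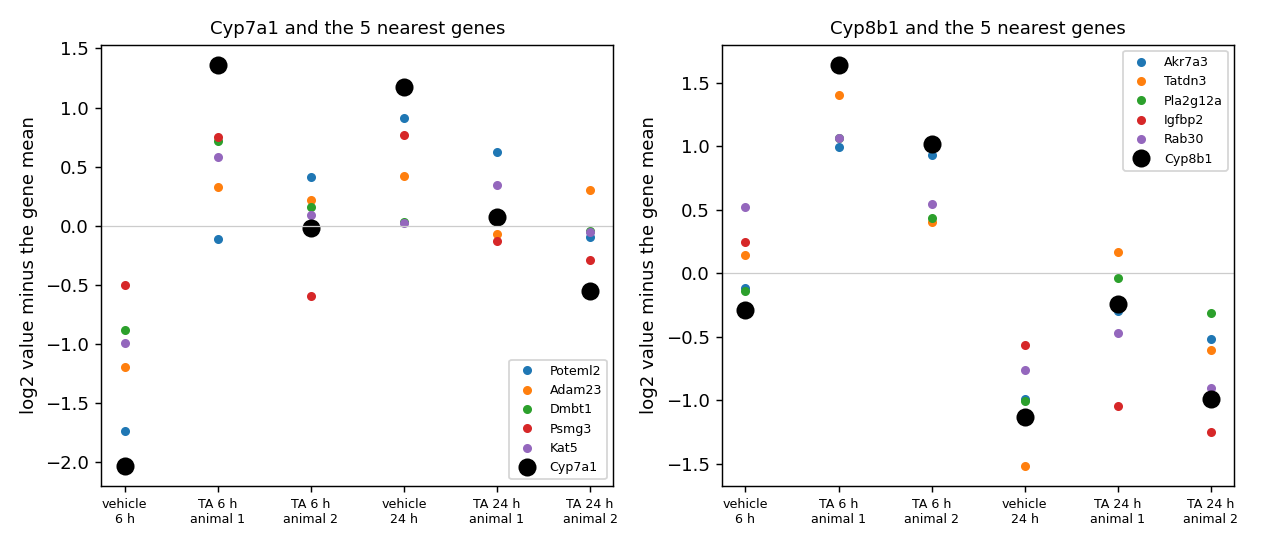
Log2 values minus each gene's mean over the 6 arrays (vertical axis) on each array (horizontal axis), for Cyp7a1 (left) and Cyp8b1 (right) in black and their 5 nearest genes in colour. Cyp8b1 and Akr7a3, 0.34 apart, are highest in both TA animals of 6 h, while Cyp7a1 lies below all 5 of its nearest genes in the vehicle pool of 6 h.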

How the data were processed

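The deposited table holds log2 expression values of 6 Affymetrix Rat230_2 arrays, normalized by the authors. The submitters' processing notes name R 2.0.1, affy 1.5.8, RMA and GCRMA, without saying whether RMA or GCRMA made these values. Values near 2 to 3 form a dense floor where differences are compressed. Instrument settings gave hybridization times, which fall into 2 runs.

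The 57 control probe sets were left out. Probe sets with a mean over 6 arrays above the 40th percentile (2.82) were tested with limma 3.58.1 in R 4.3.3 (group means, eBayes, 2 residual and 1.60 prior degrees of freedom), with two-sided p-values adjusted by Benjamini-Hochberg over all 18625. Vehicle pools were compared without a test, and 2-fold was counted. Shares over all probe sets include those just above the filter, where differences are compressed. Lists used the probe set with the highest mean of each gene, so the shares beside them are not at a like expression level. Names come from the platform annotation, which can be old. Pathway and clock genes were named where called, at least 2-fold from the pool in both animals, or 2-fold apart between pools; Nr5a2, Amacr, Acox2, Cyp39a1, Abcd3 and the genes of the closing section were chosen after their values were seen. Members and lists were chosen with earlier results of these data known. P-values measure only the spread within these arrays, moderated by limma over all tested probe sets. In the group means fit that spread is between the TA animals of a time, pooled over both times. The fit was tested on simulated arrays. Alternatives covered the filter, normalization, prior, replicate block, run and leaving out animals.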

Additional observations from a re-analysis of the deposited data

Results flagged for a closer look

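For 8 of the bile acid genes and of the pathway and clock genes named by rule, both treated animals of 6 h lay on one side of their vehicle pool and both of 24 h on the other. The test of the difference itself (limma) passed the threshold for none of the 8, with an adjusted p of 1 for each. The effect of 24 h minus that of 6 h, in log2 units, was -4.12 for Cyp7a1 and -0.37 for Cyp27a1 among the bile acid genes. It was 0.40 for Abcb4, 4.42 for Onecut1, 0.83 for Per2, 0.98 for Cry1, 1.05 for Tef and 3.60 for Bhlhe40. These are leading probe sets. The second probe sets above the filter of Per2 and Tef did not have the layout. At 6 h their animals were at 0.78 and -0.65 from the pool for Per2 and at 0.58 and -0.35 for Tef. The second probe set of Onecut1 had it, with a 24 h pool value in the floor. Other genes of the lists did so too: counting Abcb4 and Onecut1, 9 of the 41 above the filter in the 3 bile acid lists had this layout, as had 2 of the 9 bile acid genes (22.2%), against 15.5% of all probe sets. All probe sets include those just above the filter, where differences are compressed, so these shares are not at a like expression level. Both effects of a gene lean on its vehicle pools, of which there is 1 at each time. Abcb4, Per2, Cry1, Tef and Bhlhe40 were named because their pools were at least 2-fold apart, and Onecut1 in part for that. The layout rests on those same pool values, so the count of 8 is not independent of the naming rule.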

How the results depend on the processing

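No bile acid gene passed limma's threshold under any alternative run, with 0.089 the smallest adjusted p, for Abcb11 with time as 1 term over all arrays. Cyp7a1 kept its direction at 6 h and 24 h in each of them, from 2.01 to 3.40 and from -0.91 to -1.73, as Cyp8b1 did, from 1.31 to 1.97 and from 0.14 to 0.89. Counts of probe sets called over the whole table were small and moved: at 24 h 1 became 2 with a prior trend, 0 with the run as a term and 0 to 2 without 1 animal; and for the difference of effects 1 became 0 with the run as a term and 0 without any 1 animal. For time, the count was 0 within TA and 3 in the added fit over all arrays, which takes in the vehicle pools and leaves out the interaction. With the replicate block the counts at 24 h and for the difference of effects were 0 and 0. Same-numbered animals of the 2 times share only a number (the correlation of their deviations was -0.08). Some values turned sign. With quantile normalization these were Slc10a1 at 24 h (-0.0087) and the differences of effects of Nr1h4 (-0.014) and Abcb11 (-0.083). The replicate block gave 0.076 for Cyp7b1 at 6 h. The run as a term gave 0.0019 for Baat at 6 h, 0.32 for the Nr0b2 difference of effects and 1.07 for Abcg8 within TA. With time as 1 term over all arrays Cyp7a1 was at 0.46 (-0.91 within TA) and Cyp27a1 at 0.0061 (-0.12 within TA). Without 1 animal, the 6 h values ran from -0.065 to 0.014 for Cyp7b1, from -0.062 to 0.024 for Slc10a1 and from -0.074 to 0.0019 for Baat, and the 24 h value of Slc10a1 from -0.021 to 0.059. The differences of effects ran from -0.086 to 0.14 for Abcb11, from -0.0049 to 0.081 for Slc10a1, from -0.053 to 0.023 for Baat, from -0.67 to 0.58 for Nr0b2 and from -0.089 to 0.23 for Nr1h4. Within TA they ran from -0.73 to 0.51 for Nr0b2, from -0.79 to 1.42 for Abcg5 and from -1.48 to 1.07 for Abcg8. The cause was not tested. Each member has 1 probe set, so the mean of probe sets was not run. Leaving out a vehicle pool leaves no comparison at its time. The compressed floor limits Cyp7b1, Abcg8 and Nr1d1 at 24 h.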

Other observations

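Acox2, a peroxisomal oxidase that shortens the side chain of bile acid precursors, stood out in 1 animal. It was at 12.12 in TA animal 1 of 6 h, and at 10.33 in the vehicle pool and 10.41 in the other animal of that time. At 24 h it was at 9.72 in the pool and at 9.60 and 10.15 in the animals. Hsd3b7, the next enzyme after Cyp7a1 in the classic pathway, was at 10.84, 10.95 and 9.64 at 6 h and at 9.95, 8.78 and 9.72 at 24 h, lowest in TA animal 1 of 24 h.

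Slc10a2, the bile acid uptake carrier of ileum and cholangiocytes, was at 6.11 in the pool and at 4.31 and 5.82 in the TA animals at 6 h, while the 24 h values were 6.65 for the pool, then 5.82 and 5.62 for the animals. Each treated animal was below the pool of its time. Slco1a4, a carrier of organic anions and bile acids, was at 13.26, 12.86 and 12.85 at 6 h and at 12.48, 12.00 and 12.23 at 24 h on its leading probe set, and on its second probe set, too, both animals of each time were below their pool, as at 6 h with 10.02, 9.53 and 9.61.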
